A study of Mus musculus with 18 samples.

Results

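The 6 libraries described here were made from bone marrow–derived dendritic cells (DCs) kept in suspension, 3 titled plus CCL19 and 3 titled without CCL19. They are 6 of the 18 libraries of the series, and the rule that picks them reads only their titles. The other 12 libraries came from DCs in collagen gels of 1.7, 2.6, 3.5, or 4.4 mg/ml with a CCL19 source, and they enter here as shared estimates of spread and as levels for reference. All 18 libraries came from wild-type C57Bl6/J mice aged 8 to 12 weeks. Marrow cells were grown with GM-CSF, matured with lipopolysaccharide (LPS, a bacterial cell wall component) at 200 ng/ml for 24 hours, and loaded into migration chambers. RNA was taken 5 hours after the chemokine step. The suspension libraries differ from the gels in having no collagen in the chamber, and from each other in the CCL19 label. Each group has 1 library of replicate 1, 1 of replicate 2, and 1 of replicate 3. The names of the libraries of 1 replicate give a common date and flow cell lane, so a replicate is a batch as well, with 1 library of every group. The labels do not say whether a replicate was 1 mouse or a pool, and the p values below measure only the spread between these libraries.

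The CCL19 state of these 6 libraries is not settled by the labels. The titles and the chemokine entry of each sample give one state, and the library names, which head the columns of the count table, give the opposite state in 3 of 3 replicates. The levels were not used to decide between them. The groups are therefore called titled plus and titled without throughout, and no difference below is given as an effect of CCL19.

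CCL19 is a chemokine made in lymph nodes that binds CCR7, a receptor on mature DCs that couples to inhibitory G proteins. Mature DCs follow CCL19 and the related chemokine CCL21 from tissues into lymphatic vessels and lymph nodes. Receptor engagement also signals to kinases and to the actin cytoskeleton, and the receptor is desensitised by G protein–coupled receptor kinases and arrestins. DCs grown from marrow with GM-CSF are a mixed culture in which macrophages and granulocytes can remain, and in such bulk libraries fewer cells of a type and less RNA per cell cannot be told apart.

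The cells carried the RNAs of mature DCs in all 6 libraries. The summed level of 14 DC markers lay between 33630 and 103300 CPM (counts scaled to the size of the library, with edgeR's TMM factor for its composition), and none of the 14 was at 0. Ccl22, a chemokine of mature DCs, ranged from 12420 to 44400 CPM, and Cd74, the invariant chain of MHC class II, from 8416 to 29670 CPM. T and natural killer cell markers summed to at most 9.30 CPM, and 1 of the 12, Ncr1, was at 0 in all 6 libraries. Total counts ran from 13849590 to 22227961 in the libraries titled plus and from 16934387 to 23014871 in those titled without. A count of 3 equals 0.130 to 0.217 CPM of total counts in these libraries, which covers counting error only. Of 29875 genes in the table, 13844 passed the filter on low counts and were tested.

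The promoters of 3 genes that were lower in the libraries titled plus are shown first. They come from gene groups described below, sterol synthesis (Hsd17b7) and the interferon response (Ifih1 and Trim30a). Each is the 250 bases before the annotated start in RefSeq (GRCm38.p6), written 5′ to 3′ on the gene's strand. Capitals mark matches, on either strand, to CCAAT (the CCAAT box, a common promoter element) or to GAAANNGAA (the core of the interferon-stimulated response element). Hsd17b7 lies at chr1:169969206-169969455, Ifih1 at chr2:62646256-62646505, and Trim30a at chr7:104465194-104465443, all on the minus strand.
Hsd17b7: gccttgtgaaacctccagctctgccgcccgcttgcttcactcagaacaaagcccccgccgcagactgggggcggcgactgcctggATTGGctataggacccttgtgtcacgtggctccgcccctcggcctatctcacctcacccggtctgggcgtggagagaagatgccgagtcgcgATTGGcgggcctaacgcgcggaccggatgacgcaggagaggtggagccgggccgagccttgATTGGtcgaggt
Ifih1: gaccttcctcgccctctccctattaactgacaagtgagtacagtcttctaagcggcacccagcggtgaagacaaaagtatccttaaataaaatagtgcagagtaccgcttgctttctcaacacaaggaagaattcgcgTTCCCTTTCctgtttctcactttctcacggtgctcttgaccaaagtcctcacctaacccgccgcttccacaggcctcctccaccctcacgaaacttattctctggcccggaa
Trim30a: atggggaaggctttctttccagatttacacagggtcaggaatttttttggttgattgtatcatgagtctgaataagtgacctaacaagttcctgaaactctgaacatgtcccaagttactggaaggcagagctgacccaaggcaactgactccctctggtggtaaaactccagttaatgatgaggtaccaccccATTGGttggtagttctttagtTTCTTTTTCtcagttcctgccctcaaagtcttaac
Hsd17b7 held the CCAAT box 3 times, with first bases at −165, −73, and −12 relative to the start. Ifih1 held the interferon core at −112, and Trim30a held it at −35 and a CCAAT box at −56. Among all 32851 promoters searched, 33.8% held CCAAT and 7.13% held GAAANNGAA. Of 29 promoters of 24 matched genes of sterol and fatty acid synthesis, 65.5% held CCAAT. Of 45 promoters of 38 matched interferon-stimulated genes, 48.9% held GAAANNGAA. The core of the sterol regulatory element, TCACNCCAC, was in 1 of those 29 promoters, or 3.45%, against 1.05% of all promoters. Another annotated start of Trim30a had no match. The motifs do not overlap in these windows, and a match is only a run of letters. The promoters shown are among those with a match. Acaca, also of the sterol group, had no match to any of the 3 motifs at the start searched. Scd1 and Parp14, which belong to the same groups, are named here without a promoter.

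No gene passed the threshold between the groups. With the replicate as a block, edgeR's quasi-likelihood test called 0 of 13844 genes at a false discovery rate (FDR) of 0.1, or 0% of the genes tested, and the smallest adjusted p was 0.323 from that test. At an unadjusted p under 0.05 there were 1960 genes, 650 higher in titled plus (4.70% of the genes tested) and 1310 lower (9.46%). In 3 of 3 replicates, 3081 genes were higher in titled plus (22.3%) and 3341 were lower (24.1%). The groups did not overlap in 763 genes that were higher (5.51%) and 1125 that were lower (8.13%). An exact permutation test of 3 libraries against 3 that ignores the replicate cannot give a p below 0.1. Exchange only within replicates leaves fewer arrangements, so no single gene could be tested in either way. DESeq2, fitted with the same block, called 52 higher genes (0.545% of the 9549 genes to which it gave an adjusted p) and 142 lower genes (1.49%) at an FDR of 0.1. The number of calls thus depended on the tool, and the levels below are given as differences rather than as changes. The number also depended on 1 library: without the library titled without CCL19 of replicate 3, edgeR called 1014 genes, 247 higher and 767 lower. The smallest adjusted p was then 0.0877 from edgeR, so these calls lay just under the threshold and none would pass at 0.05.

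The 3 replicates differed in size and pattern of the difference. The root mean square difference in log2 CPM between the suspension libraries of a replicate was 0.564 in replicate 1, 1.13 in replicate 2, and 0.618 in replicate 3. More than 2-fold differences were seen in 7.72% of genes tested in replicate 1, 37.7% in replicate 2, and 9.70% in replicate 3. Replicate 2 thus stands apart by its spread. The names of its libraries also give another flow cell than those of replicates 1 and 3, which share theirs. That flow cell and replicate 2 coincide, so their parts in the spread cannot be told apart, and this was not tested. In replicate 1 the suspension libraries were nearer to each other than either was to a collagen library of that replicate, where the nearest lay at 0.823. The same held in replicate 3, where the nearest collagen library lay at 0.755. In replicate 2 both suspension libraries were nearer to a collagen library, at 0.947 for titled plus and 0.837 for titled without, than to each other. The differences of replicates 1 and 2 correlated across the 13844 genes with Pearson's r = 0.54, those of replicates 1 and 3 with r = 0.179, and those of replicates 2 and 3 with r = 0.132, where genes are not independent replicates.

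**Figure D1:**
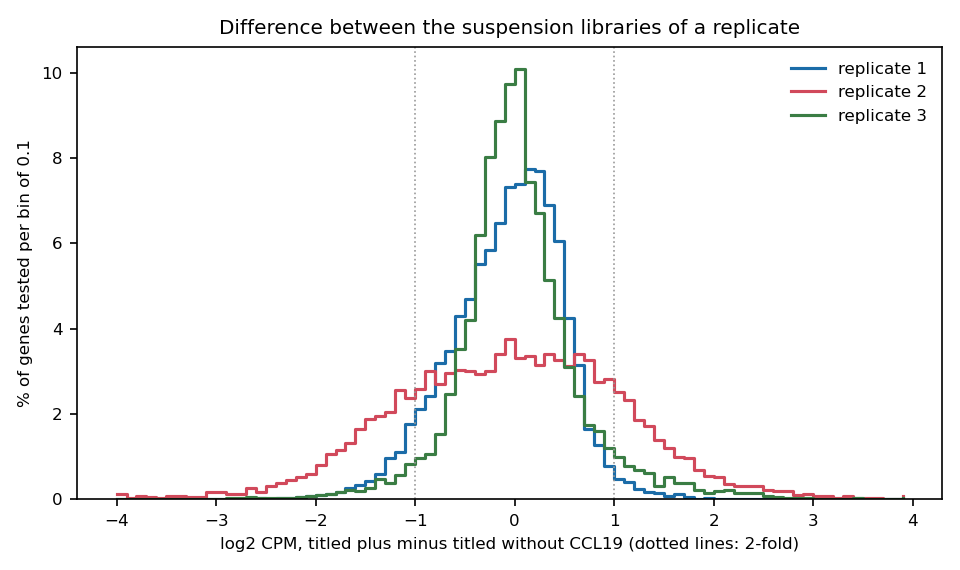
Distribution, over the 13844 genes tested, of the difference in log2 CPM (titled plus minus titled without CCL19) within each replicate, as % of genes per bin of 0.1, with values beyond ±4 placed in the end bins. The curve of replicate 2 is the broadest, with 37.7% of genes beyond the dotted lines at 2-fold, against 7.72% and 9.70% in replicates 1 and 3.

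The difference followed the base composition and length of the genes in replicates 1 and 2. In the decile of genes with the lowest GC content (median 39.7%), the median log2 difference was −0.63 in replicate 1, −0.93 in replicate 2, and −0.02 in replicate 3. In the decile with the highest GC content (median 59.4%), it was 0.32, 0.71, and 0.08. GC-poor genes were thus lower and GC-rich genes higher in titled plus in those 2 replicates, and hardly so in replicate 3. By exon length, the shortest decile (median 854 bases) had medians of 0.19, 0.81, and 0.13 and the longest decile (median 11890 bases) had −0.40, −1.02, and −0.08. Spearman's correlation of the difference with GC content across 13834 genes was 0.549, 0.485, and 0.0864 in replicates 1 to 3, and with length it was −0.293, −0.429, and −0.126. All genes of a replicate come from the same 2 libraries, so these are descriptions. With offsets for GC content and length beside the block, edgeR called 0 genes (smallest adjusted p = 0.174), and 566 genes were higher and 638 lower at an unadjusted p under 0.05, so that 47.0% of these genes were higher, against 33.2% without the offsets.

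**Figure D2:**
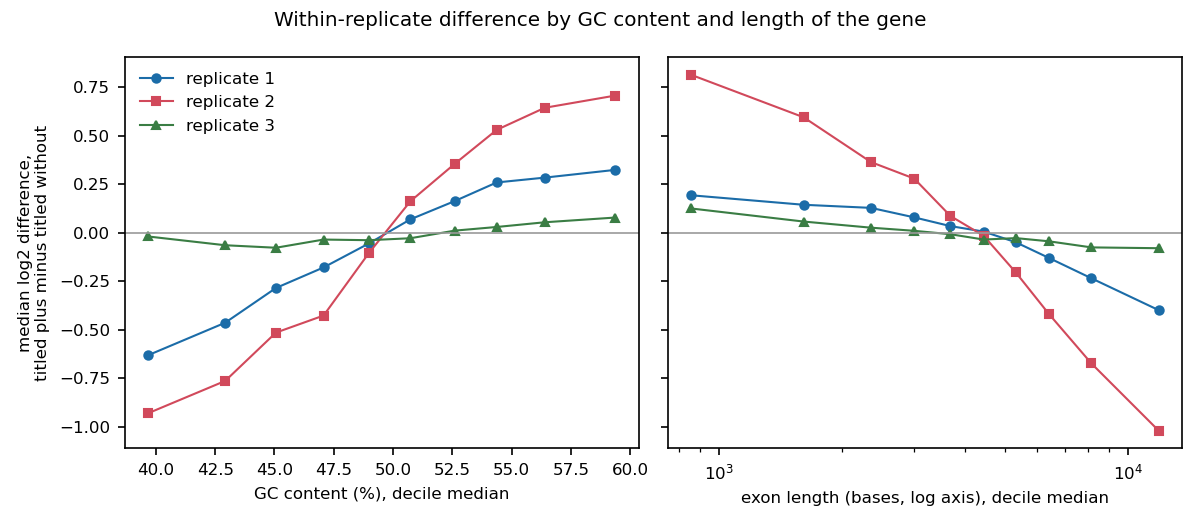
Median difference in log2 CPM (titled plus minus titled without CCL19) in deciles of the genes tested, ordered by GC content in % (left) or by summed exon length in bases on a log axis (right), with a line for each replicate. Replicates 1 and 2 slope up with GC content and down with length, from −0.63 and −0.93 to 0.32 and 0.71 over the GC range, and replicate 3 stays within 0.13 of 0.

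CCR7, the receptor for CCL19, differed little between the groups. Ccr7 (ENSMUSG00000037944, chr11:99144196-99155077, GRCm38, minus strand) was at 2376, 4515, and 6425 CPM in titled plus replicates 1 to 3 and at 2342, 3234, and 4989 CPM in titled without. Its level depended more on the replicate than on the title, and the groups overlapped. The log2 difference was 0.32 (95% confidence interval −0.30 to 0.94, adjusted p = 0.595 from edgeR), and with GC and length offsets it was −0.0067. In the 12 collagen libraries Ccr7 ran from 3132 to 5244 CPM. Ccrl2, an atypical receptor that binds chemerin and was listed with CCR7, was at 165, 34.8, and 25.9 CPM in titled plus and at 105, 20.7, and 9.80 CPM in titled without. It was higher in titled plus within each replicate by 0.65, 0.75, and 1.39 on the log2 scale, with an adjusted p of 0.379 from edgeR. The ligand genes Ccl19 and Ccl21a are not analysed here.

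The 5 genes with the smallest p among those lower in titled plus were Sema6d, Scd1, Ccnd2, Ciita, and Cnn3, none of which passed the threshold (adjusted p = 0.323 for each from edgeR). Sema6d, a transmembrane semaphorin that binds plexins, was at 13.2, 20.0, and 39.4 CPM in titled plus and at 51.1, 129.6, and 94.1 CPM in titled without. The groups did not overlap, and the log2 difference was −1.95 (SE 0.38). Collagen libraries ran from 14.9 to 136.0 CPM and covered nearly all of both groups. Ciita, the transactivator of MHC class II genes, was at 117, 36.8, and 71.0 CPM in titled plus and at 227, 136.1, and 246 CPM in titled without. All 3 libraries titled without lay above the highest collagen library (112 CPM), as did the library titled plus at 117 CPM. The log2 difference was −1.48 (SE 0.33). The class II genes themselves did not share this pattern: H2-Aa was at 2821, 6650, and 6347 CPM in titled plus and at 2789, 3128, and 6949 CPM in titled without. Ccnd2, which encodes cyclin D2, was at 377, 448, and 755 CPM in titled plus and at 872, 2127, and 1408 CPM in titled without. These groups did not overlap either, and the log2 difference was −1.53 (SE 0.33). Cnn3, an actin-binding calponin, was at 1.48, 7.08, and 12.4 CPM in titled plus and at 4.56, 21.8, and 34.2 CPM in titled without. Its groups overlapped, with the lowest level of each in replicate 1, and the log2 differences within the replicates were close, at −1.55, −1.61, and −1.46.

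The 5 genes with the smallest p among those higher in titled plus were Ust, Tecpr1, Pink1, Ubald2, and Abtb1, with the same adjusted p of 0.323 from edgeR. The groups did not overlap in any of these 5. Ust, a uronyl sulfotransferase of glycosaminoglycan synthesis, was at 3.73, 4.93, and 7.63 CPM in titled plus and at 1.00, 2.14, and 2.03 CPM in titled without. A library held 26 to 184 counts of it, and the log2 difference was 1.65 (SE 0.35). Tecpr1, which takes part in autophagy, was at 213, 224, and 205 CPM in titled plus and at 134, 104, and 87.5 CPM in titled without. The 3 libraries titled plus lay within a narrow range. All exceeded the highest collagen library (125 CPM), as did the library titled without at 134 CPM. The log2 difference was 0.98 (SE 0.22). Pink1, a kinase of mitochondrial quality control, was at 139, 127, and 128 CPM in titled plus and at 83.8, 40.4, and 37.4 CPM in titled without. Its log2 difference was 1.37 (SE 0.31), and again all libraries titled plus exceeded the highest collagen library (96.1 CPM). Abtb1, which holds ankyrin repeats and a BTB domain, was at 97.7, 113, and 58.9 CPM in titled plus and at 49.5, 34.5, and 34.1 CPM in titled without (log2 difference 1.12, SE 0.26). Ubald2 was low, at 12.7, 14.1, and 6.93 CPM in titled plus and at 6.03, 3.33, and 1.57 CPM in titled without. In DESeq2 with the block these 10 genes passed, with adjusted p values from 0.00350 to 0.0334 from that tool. With GC and length offsets in edgeR none of the 10 passed, and their log2 differences kept their sign, with Pink1 at 0.94 and Ubald2 at 1.20.

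**Figure D3:**
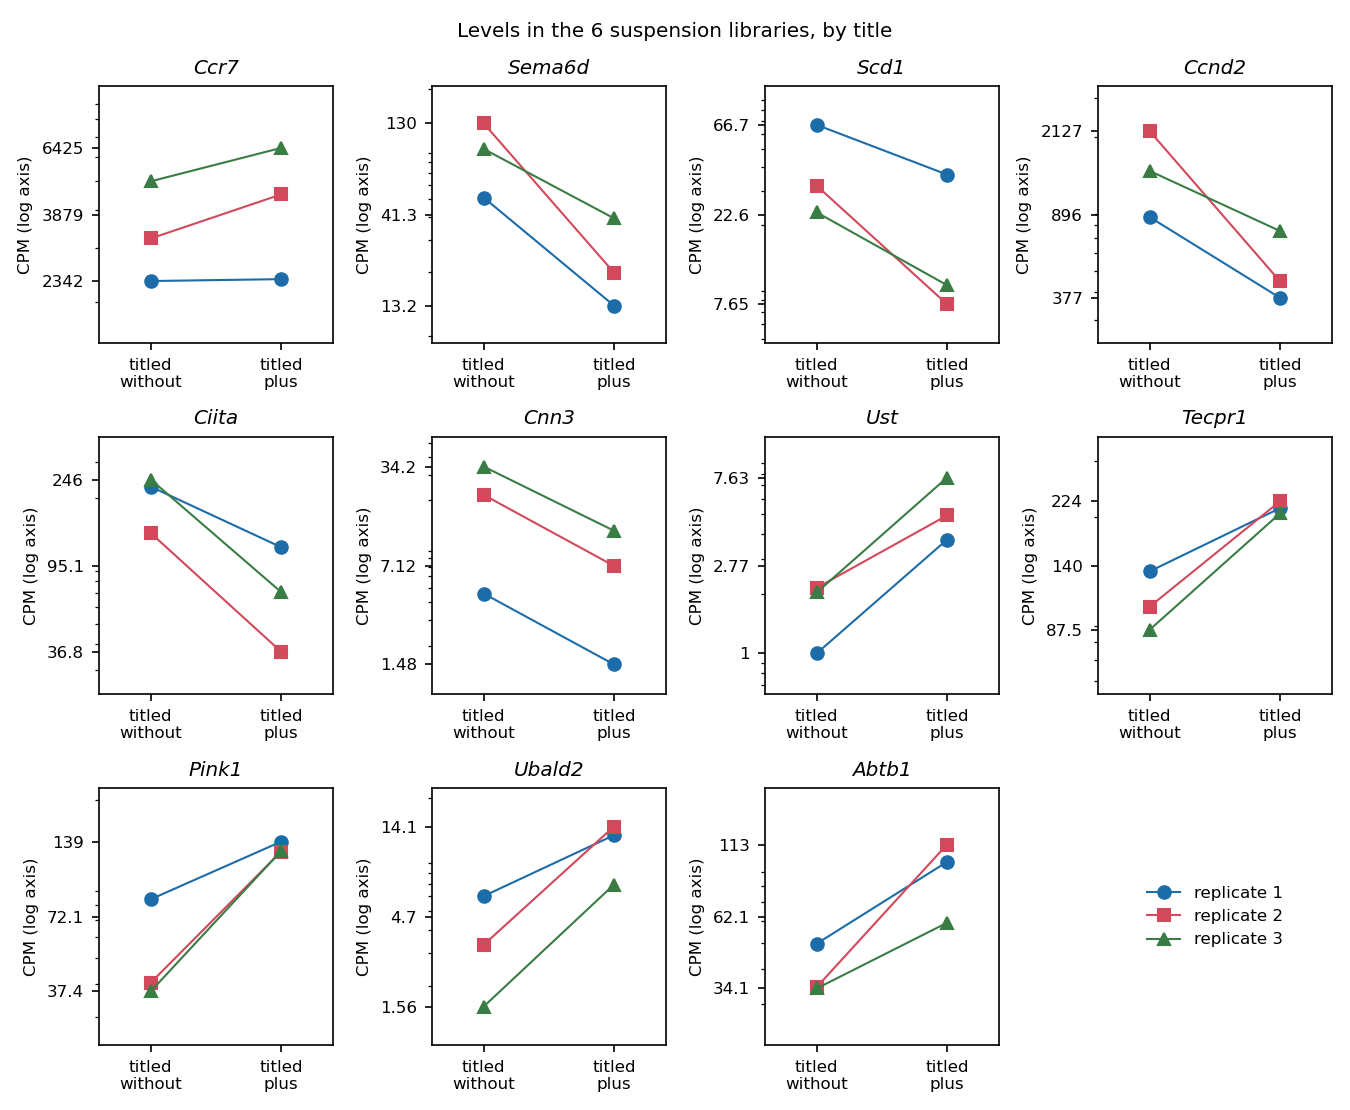
Level in CPM (log axis, scaled by panel) of Ccr7 and of the 5 genes with the smallest p in each direction. Libraries titled without and titled plus CCL19 are shown, and a line joins the libraries of a replicate. All 3 lines fall from titled without to titled plus in Sema6d, Scd1, Ccnd2, Ciita, and Cnn3, and all 3 climb in the other panels, by 0.02 on the log2 scale in replicate 1 of Ccr7.

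Genes of sterol and fatty acid synthesis had a lower median in titled plus in each replicate. Cholesterol and unsaturated fatty acids are made in the endoplasmic reticulum and cytosol, under the SREBP transcription factors. Of 35 genes tested, 30 had a negative and 5 a positive log2 difference, with a median of −0.50, against −0.01 for all genes tested. The median was −0.38 in replicate 1, −0.31 in replicate 2, and −0.69 in replicate 3. The difference was negative in 3 of 3 replicates in 18 genes, or 51.4%, beside 24.1% of all genes tested. At an unadjusted p under 0.05, 10 were lower and 0 higher, beside 9.46% and 4.70% of all genes tested. The groups did not overlap in 7 lower genes and 1 higher gene, beside 8.13% and 5.51%. None passed in edgeR (smallest adjusted p = 0.323), and DESeq2 called 5, all lower, beside 1.49% of the genes it tested. With GC and length offsets 33 of the 35 were lower, with a median of −0.44. The list lost most when the library titled without CCL19 of replicate 3 was left out, which gave a median of −0.21.

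Scd1, the desaturase that makes oleic from stearic acid, was at 36.6, 7.65, and 9.63 CPM in titled plus and at 66.7, 32.0, and 23.2 CPM in titled without. It was lower within every replicate, though the library titled plus of replicate 1 lay above 2 libraries titled without. The log2 difference was −1.38 (SE 0.29). Hmgcs1, the synthase of the mevalonate pathway, was at 16.8, 18.02, and 19.5 CPM in titled plus and at 37.3, 60.6, and 39.8 CPM in titled without. The groups did not overlap, and the log2 difference was −1.35 (SE 0.42). Lss, the lanosterol synthase, was at 13.1, 17.0, and 14.3 CPM in titled plus and at 19.2, 24.2, and 37.0 CPM in titled without. Hsd17b7, which acts late in cholesterol synthesis, was at 2.35, 5.79, and 8.71 CPM in titled plus and at 6.07, 14.7, and 25.2 CPM in titled without, and differed within the replicates by −1.33, −1.33, and −1.52. Acaca, the acetyl-CoA carboxylase that starts fatty acid synthesis, was at 5.16, 9.58, and 11.1 CPM and at 9.39, 20.8, and 24.9 CPM. The regulators differed less. Srebf2, the SREBP gene tied to sterols, was at 319, 313, and 322 CPM in titled plus and at 364, 328, and 483 CPM in titled without, with no overlap and a log2 difference of −0.31 (SE 0.25). Srebf1 had a log2 difference of 0.19. In the other direction, Fads1, a desaturase of polyunsaturated fatty acids, was at 51.7, 48.6, and 49.6 CPM in titled plus and at 38.2, 31.9, and 37.6 CPM in titled without.

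Interferon-stimulated genes were lower in titled plus mainly in replicate 2. These genes are switched on by interferons and by LPS through interferon made by the cell itself. Of 48 tested, 33 had a negative and 15 a positive log2 difference, with a median of −0.30. The median was 0.00 in replicate 1, −0.69 in replicate 2, and −0.17 in replicate 3, so the replicates did not share it. In 16 genes (33.3%, beside 24.1% of all genes tested) the difference was negative in 3 of 3 replicates, and in 4 (8.33%, beside 22.3%) it was positive. At an unadjusted p under 0.05, 10 were lower and 0 higher, beside 9.46% and 4.70%. Parp14, a mono-ADP-ribosyltransferase, was at 44.1, 43.1, and 56.6 CPM in titled plus and at 93.5, 186, and 90.7 CPM in titled without. Ifih1, a sensor of double-stranded RNA, was at 18.8, 13.5, and 20.0 CPM in titled plus and at 34.6, 48.7, and 39.0 CPM in titled without. Trim30a was at 45.5, 27.7, and 46.4 CPM and at 70.6, 125, and 68.3 CPM. The groups did not overlap in any of the 3, their log2 differences were −1.38 (SE 0.32), −1.31 (SE 0.37), and −1.27 (SE 0.34), and DESeq2 called all 3. Rsad2, an antiviral enzyme, showed how much the level depended on the replicate, at 200.3, 6.15, and 4.86 CPM in titled plus and at 222, 27.8, and 7.59 CPM in titled without. Without replicate 2 the median of the list was −0.09. It was −0.06 without the library titled without CCL19 of replicate 2 and −0.54 without that of replicate 1, and with GC and length offsets it was −0.22.

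Chemokine ligand genes were somewhat higher in titled plus. Of 24 tested, 18 had a positive log2 difference, with a median of 0.31, and the replicate medians were 0.24, 0.32, and 0.27. It was 0.16 without the library titled plus of replicate 2 and 0.50 without that of replicate 1. The sign was positive in 3 of 3 replicates in 9 (37.5%, beside 22.3% of all genes tested) and negative in 1. No group pair was free of overlap. Ccl6, a monocyte and granulocyte chemokine, was at 939, 2525, and 1384 CPM in titled plus and at 740.2, 777, and 1027 CPM in titled without. Ccl4, an attractant of T cells and monocytes, was at 14.3, 22.6, and 6.18 CPM and at 11.1, 7.52, and 2.96 CPM. Their log2 differences were 1.00 (SE 0.40) and 1.07 (SE 0.47). Ccl22 had a log2 difference of −0.16 and Ccl17, which like Ccl22 attracts T cells through CCR4, one of 0.30. Chemokine and chemoattractant receptors had a median of 0.05 over 23 genes, with 12 higher and 11 lower. Ltb4r1, the leukotriene B4 receptor, was at 81.5, 114.9, and 32.4 CPM in titled plus and at 38.6, 19.7, and 21.2 CPM in titled without, and was the single receptor that DESeq2 called.

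The genes that act below the receptor had medians near 0. Over 30 genes of Gi coupling and desensitisation the median was −0.06, and over 38 genes of the actin and migration machinery it was 0.02. Both medians changed sign with GC and length offsets, to 0.02 and −0.06. The sign was negative in 3 of 3 replicates in 11 genes of each list (36.7% and 28.9%, beside 24.1% of all genes tested). It was positive in 6 genes of each (20% and 15.8%, beside 22.3%). At an unadjusted p under 0.05 from edgeR, 5 genes of each list were lower, beside 9.46% of all genes tested. In that test 1 Gi gene and 0 actin genes were higher, beside 4.70%. Gnai3, an inhibitory G protein alpha subunit, was at 97.8, 157, and 227 CPM in titled plus and at 197, 394, and 306 CPM in titled without. Grk3, a kinase that desensitises receptors, was at 57.6, 64.4, and 102 CPM and at 132, 253, and 118 CPM. Of the genes of Gi coupling and desensitisation, the groups did not overlap in 3 higher genes (Gnb2, Grk6, and Arrb2) and 2 lower genes (Grk3 and Grk4), beside 5.51% and 8.13% of all genes tested. Arrb2, an arrestin that binds activated receptors, was at 774, 944, and 781 CPM in titled plus and at 576, 417, and 663 CPM in titled without, with a log2 difference of 0.59 (SE 0.30). Grk6, a kinase of the same kind as Grk3, had a log2 difference of 0.64 (SE 0.26). Vcl, which encodes vinculin, a protein that ties adhesion sites to actin, was at 17.5, 23.6, and 31.8 CPM in titled plus and at 40.3, 51.7, and 43.5 CPM in titled without, also with no overlap. Of the 38 actin and migration genes, the groups did not overlap in 3 lower and 0 higher genes, beside 8.13% and 5.51%. The 35 immediate early genes, which respond quickly to signalling, had a median of 0.09, which turned to −0.12 with GC and length offsets. At an unadjusted p under 0.05, 1 was higher, Klf2, and 2 were lower, Klf6 and Dusp2, beside 4.70% and 9.46% of all genes tested. Klf6 and Dusp2 had log2 differences of −0.70 and −0.92. Klf2 was at 11.7, 28.5, and 12.2 CPM in titled plus and at 7.57, 6.24, and 10.1 CPM in titled without.

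The maturation and stress lists gave no common direction. Of 44 genes of DC maturation, 25 had a positive and 19 a negative log2 difference (median 0.09), and of 47 cytokine and NF-kB target genes, 25 and 22 (median 0.06). Heat shock and endoplasmic reticulum chaperones had a median of −0.10 over 31 genes, with 12 (38.7%, beside 24.1% of all genes tested) negative and 6 (19.4%, beside 22.3%) positive in 3 of 3 replicates. At an unadjusted p under 0.05, 6 of these genes were lower and 2 higher, beside 9.46% and 4.70% of all genes tested. Hsp90aa1, the inducible cytosolic HSP90, was at 9.56, 16.0, and 32.0 CPM in titled plus and at 20.3, 55.5, and 64.6 CPM in titled without. The medians were 0.07 for the integrated stress response, 0.20 for hypoxia and glycolysis, 0.19 for NRF2 antioxidant targets, 0.29 for proliferation and cell cycle, and 0.05 for p53 targets and apoptosis. Among the 16 functional lists, the replicate medians were all positive in 5, all negative in 3, and of mixed sign in 8. The chaperones were among the 3, at −0.12, −0.01, and −0.12 in replicates 1 to 3. Hypoxia and glycolysis (0.36, 0.23, and 0.05) and NRF2 targets (0.10, 0.88, and 0.01) were among the 5. In proliferation and cell cycle the replicates ran from −0.16 in replicate 3 to 0.84 in replicate 2, and the median was −0.07 without replicate 2. With GC and length offsets the medians of the cytokine, integrated stress response, and p53 lists became negative, at −0.09, −0.09, and −0.10. Lists beside one another share libraries, and no list was tested as a whole.

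**Figure D4:**
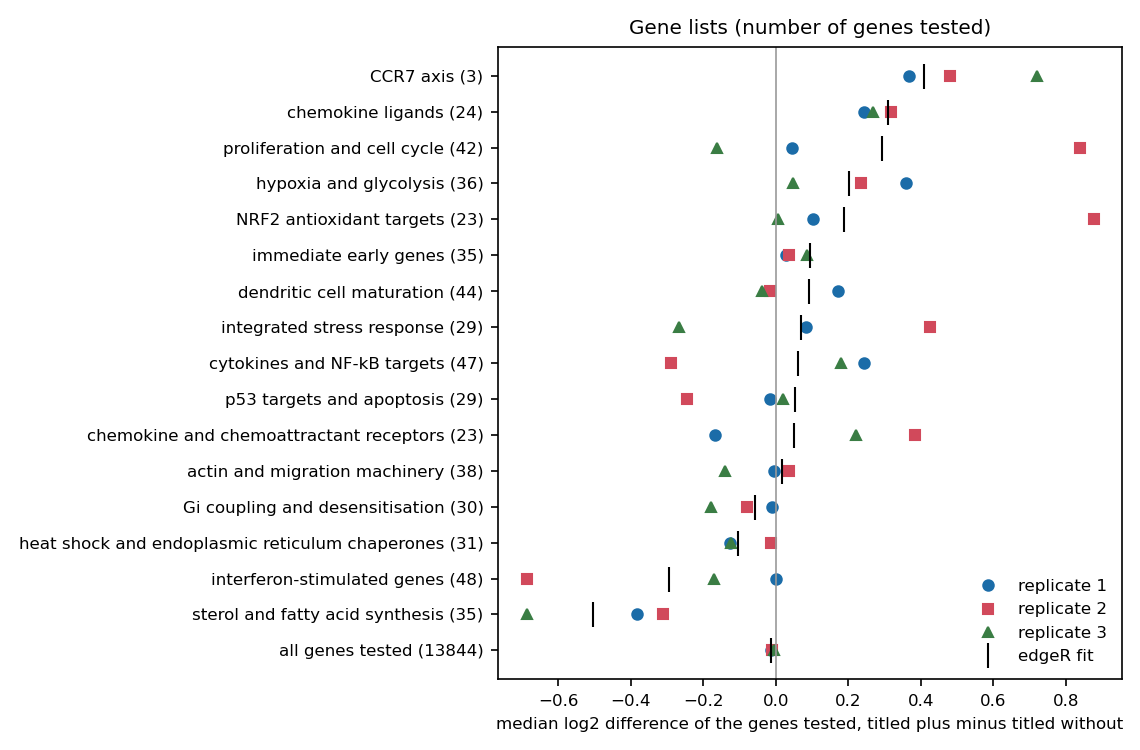
Median difference in log2 CPM (titled plus minus titled without CCL19) of the genes tested in each of 16 functional lists and in all genes tested, for each replicate (coloured points) and in the edgeR fit with the replicate block (black bars), with the number of genes in parentheses. Sterol and fatty acid synthesis lies below 0 in each replicate, at −0.38, −0.31, and −0.69, and the interferon-stimulated genes spread from 0.00 to −0.69.

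Summed markers of granulocytes and macrophages were higher in titled plus, most of all in replicate 2. The 13 neutrophil markers summed to 883, 10280, and 4177 CPM in titled plus and to 795, 2171, and 2870 CPM in titled without, ratios of 1.11, 4.73, and 1.46. The 9 eosinophil markers summed to 148, 1345, and 943 CPM and to 118, 187, and 504 CPM, ratios of 1.26, 7.18, and 1.87. The 13 macrophage markers summed to 6716, 5134, and 1541 CPM and to 4895, 1736, and 1247 CPM, ratios of 1.37, 2.96, and 1.24. All 3 sums were thus higher in titled plus in 3 of 3 replicates, and no marker of these lists was at 0 over the 6 libraries. In 3 of 3 replicates, 6 of 13 neutrophil, 6 of 8 eosinophil, and 6 of 13 macrophage genes tested were higher. These shares were 46.2%, 75%, and 46.2%, beside 22.3% of all genes tested, and 0 were lower in 3 of 3. S100a8 and S100a9 went the other way in replicate 1, at 144 and 116 CPM in titled plus against 164 and 143 CPM in titled without. Of the tested markers, 13 of 13 neutrophil, 6 of 8 eosinophil, and 11 of 13 macrophage genes had a positive log2 difference, with medians of 1.10, 1.24, and 0.70. Their median exon lengths were 1222, 1692, and 2138 bases, against 4058 for all genes tested. With GC and length offsets the medians were 0.84, 0.95, and 0.46, with 13, 7, and 10 genes positive. Ngp, a neutrophil granule protein, was at 280, 3546, and 1273 CPM in titled plus and at 191, 538, and 920 CPM in titled without. Prg2, the eosinophil major basic protein, was at 104.5, 1078, and 774 CPM and at 83.7, 140.0, and 414 CPM. It made up most of the eosinophil sum in each library. Ccr3 was at 1.94, 3.58, and 9.42 CPM in titled plus and at 2.90, 8.52, and 4.46 CPM in titled without. Siglecf was likewise lower in titled plus in replicates 1 and 2 and higher in replicate 3. Il5ra reached at most 0.464 CPM. Lyz2, a lysozyme of macrophages and granulocytes, was at 1480, 2685, and 799 CPM and at 1260, 653, and 611 CPM. The group sums overlapped in all 3 lists, and without replicate 2 the medians were 0.42, 0.75, and 0.33. The eosinophil median ran from 0.59 without the library titled plus of replicate 3 to 2.08 without the library titled without of that replicate. Eosinophil sums in the collagen libraries ran from 14.2 to 169 CPM, below 4 of the 6 suspension libraries. The summed DC markers gave ratios of 1.08, 1.5, and 0.856. The part of these marker levels in the differences between the groups was not tested.

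**Figure D5:**
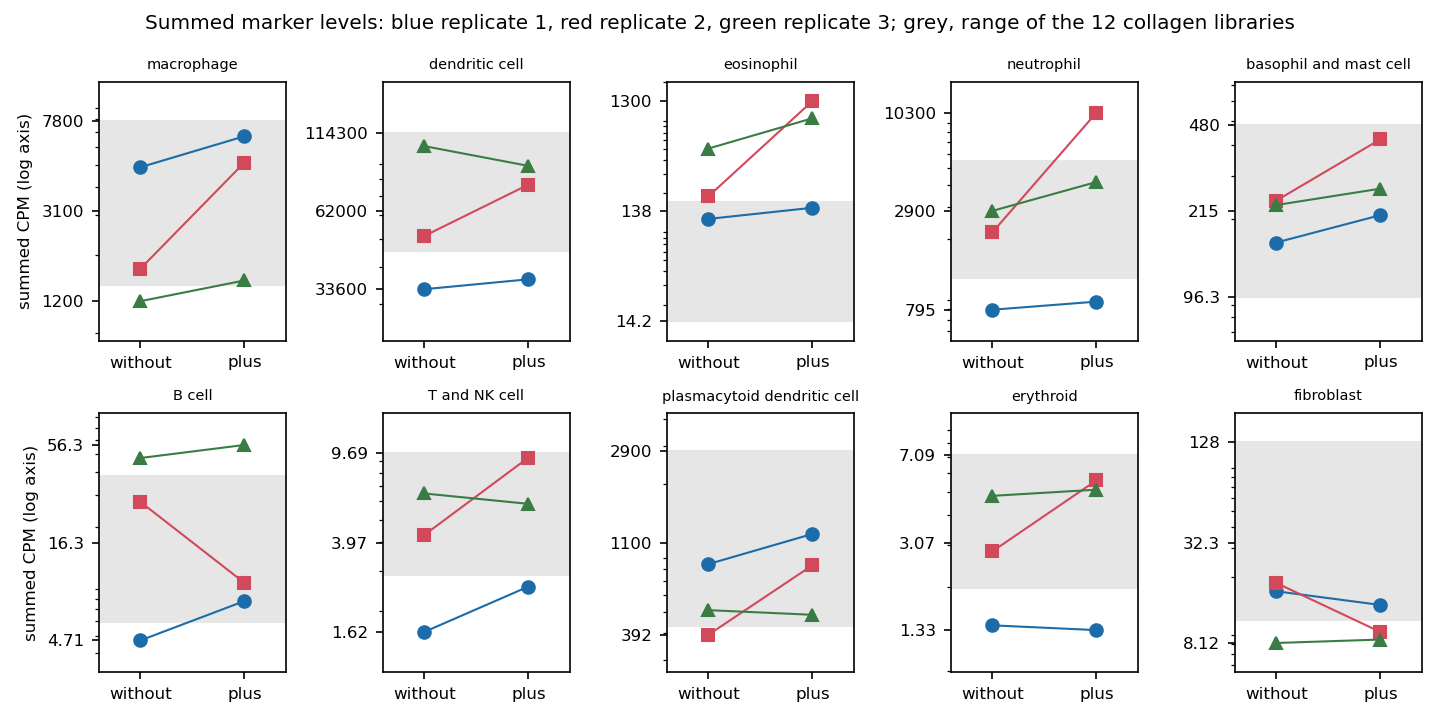
Summed level in CPM (log axis, scaled by panel) of 10 marker lists in the libraries titled without and titled plus CCL19, with a line for each replicate and grey bands for the range of the 12 collagen libraries. Neutrophil, eosinophil, and macrophage sums are higher in titled plus in 3 of 3 replicates, with the steepest lines in replicate 2 (ratios of 4.73, 7.18, and 2.96).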

How the data were processed

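Poly(A) RNA was sequenced as stranded single-end reads of 50 bases in 18 libraries. The authors aligned the reads with STAR 2.7.0f to GRCm38 and deposited raw counts of each Ensembl gene. The methods name RSEM for TPM values, which were not used; whether it also gave the counts is not given in the sources used here, so values of close paralogs, among them the Ear genes, are uncertain. The counts were analysed with R 4.3.3 and edgeR 4.0.16, and promoters were searched with Python 3.11.15. Genes were filtered with filterByExpr, scaled by TMM, and tested with the quasi-likelihood F-test in 1 fit over the 18 libraries, with group and replicate as terms. The replicate pairs the libraries because its libraries have a common date and lane in their names, and their deviations from the group means correlated with a mean r of 0.434 (45 pairs), and with r = 0.846, 0.0787, and 0.587 for the suspension libraries of replicates 1 to 3. The SE is the log2 difference divided by the root of F. A prior count of 2 was added for log2 CPM. DESeq2 1.42.0 was an alternative. GC content, length, and coordinates came from GENCODE M21 on GRCm38, and promoters from RefSeq. The comparison, its members, and the 26 gene lists were chosen with earlier results of these data known. Named genes were Ccr7, Ccl19, and Ccl21a and, since fewer than 5 genes passed in each direction, the 5 with the smallest p in each. All other genes were named after their values were seen. Results for some members of the sterol list are not reported here.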

Additional observations from a re-analysis of the deposited data

How the results depend on the processing

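At an FDR of 0.1, edgeR called 0 genes with and without the replicate block, with DESeq2 size factors, with a mean of at least 1 CPM, with the 6 suspension libraries alone, with GC and length offsets, with a robust prior (an alternative chosen after seeing the data), and at an FDR of 0.05. DESeq2 with the block called 194 genes, DESeq2 with the block and no filter (also chosen after seeing the data) 258, and edgeR with no filter on low counts 385, of which 127 were among the 194. The prior degrees of freedom of the edgeR fit with no filter were infinite, against 8.127 with the filter. That fit thus used no spread particular to a gene, so its 385 calls do not stand on the same ground as the fit reported. Leaving out a replicate or a library gave 0 to 1014 genes. The 1014 came without the library titled without CCL19 of replicate 3, and 160 of the 194 were among them. Their smallest adjusted p was 0.0877 from edgeR. At an unadjusted p under 0.05 the count was 855 without the replicate block, 1204 with GC and length offsets, and 277 to 3569 with a replicate or library left out, 277 without replicate 2, 440 and 683 without its library titled without or titled plus, 1241 without replicate 1, 1306 without the library titled plus of replicate 3, and 3569 without the library titled without of that replicate. Of the named genes, 3 changed sign, all with GC and length offsets: Ccr7 (−0.0067), Slc7a11 (0.13), and Tcf4 (0.24). Over the alternatives, 100 values of named genes passed the threshold that they missed in the fit reported, and 921 stayed on the same side and kept their sign. Of the list medians, 414 moved by less than the spread between replicates and 54 by more. The replicate block changed no call, since 0 genes passed with and without it. With a BCV of 33.1% and 3 libraries per group, a p that missed the threshold does not show that the groups were alike.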

Other observations

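Slc7a11, the cystine transporter among the NRF2 targets, was at 165, 97.0, and 57.8 CPM in titled plus replicates 1 to 3 and at 249, 207, and 69.6 CPM in titled without. Within each replicate it was lower in titled plus, while its direction turned with GC and length offsets. Basophil and mast cell markers summed to 207, 421, and 266 CPM in titled plus and to 161, 238, and 228 CPM in titled without. Fibroblast markers summed to between 8.12 and 18.5 CPM in the 6 suspension libraries, against 11.2 to 128.5 CPM in the collagen libraries. Plasmacytoid DC markers rested almost wholly on Bst2, which mature DCs also express, since Siglech reached at most 0.232 CPM. B cell markers summed to 56.3 and 47.7 CPM in the libraries of replicate 3 titled plus and titled without, and to between 4.71 and 27.4 CPM in the other 4.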
